A study of Mus musculus with 6 samples.

Results

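The 9 genes described here were grouped as naive lymphocyte homing and quiescence genes: *Lef1*, *Tcf7*, *Dapl1*, *Igfbp4*, *Ccr7*, *Il7r*, *S1pr1*, *Satb1* and *Bach2*. They were chosen by name from the 55538 features of a single-cell count table of mouse peritoneal cells, and all 9 were in the table. The cells came from C57BL/6 mice that were either MerTK +/+ or MerTK -/-, the second genotype being a line called *MerKD*, which lacks a receptor that macrophages use to take up dying cells and had been backcrossed to C57BL/6J. Lavage cells of adult mice, pooled from 3 animals for each of the 6 libraries, were left on plates for an hour and rinsed, so every library holds cells that stayed on the plate. One library of each genotype had a change of medium only, and the others were kept for 2 or for 6 hours with GFP-expressing Jurkat cells, a human T cell line, that ultraviolet light had made apoptotic. The labels call the samples peritoneal macrophages, but lymphocytes remained in every library, and these genes were read in them.

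The suffix of a cell barcode, 1 to 6, gives its library and is called the library number here. None of the sources used here ties a number to a genotype or a time, so no genotype or time was compared. Each library number is 1 library, there is no replicate of a condition, and no p-value is given. Levels are CPM, the unique molecular identifiers (UMIs) of a gene summed over the cells of a class, per 1000000 UMIs of these cells. Exact 95% intervals are given in parentheses beside them and cover counting error only. The spread is given over the 6 library numbers, and 28 barcodes occurred under more than 1 number.

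Naive T cells and follicular B cells circulate between blood and lymphoid organs in a resting state. CCR7 answers to the chemokines that mark the entry into lymph nodes, S1PR1 senses the sphingosine 1-phosphate that draws cells out again, and the interleukin-7 receptor chain IL7R carries the survival signal that resting T cells depend on. TCF-1 (*Tcf7*), LEF-1, SATB1 and BACH2 are nuclear factors tied to the naive or quiescent state, whereas *Igfbp4* encodes a secreted binding protein of insulin-like growth factors and *Dapl1* a small protein whose role is less well defined.

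The upstream sequences of *Lef1*, *Dapl1* and *Igfbp4* are shown, 3 of the 4 members whose counts lay mainly in T cells. Of the 9 genes, 7 had a promoter entry in RefSeq (GRCm38.p6), 15 entries in all, with no entry for *Ccr7* and *S1pr1*. Each line holds the 250 bases before an annotated start, 5′ to 3′ on the strand of the gene, and all 3 genes lie on the + strand. The 5′-most *Lef1* start has chr3:131110047-131110296 before it, an internal *Lef1* start has chr3:131156044-131156293, *Dapl1* has chr2:59484403-59484652 and *Igfbp4* has chr11:99040994-99041243. Capitals mark matches to short motifs searched on both strands, CTTTGA for TCF/LEF, GTAAACA for FOXO, TGTGGTT for RUNX, CCGGAAG for ETS and CCNCACCC for KLF factors.
Lef1 at its 5′-most start: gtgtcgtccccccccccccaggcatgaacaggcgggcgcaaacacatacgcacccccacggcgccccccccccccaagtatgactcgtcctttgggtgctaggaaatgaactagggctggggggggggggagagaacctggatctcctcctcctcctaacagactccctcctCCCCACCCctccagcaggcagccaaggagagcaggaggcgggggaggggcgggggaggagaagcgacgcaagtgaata
Lef1 at the internal start: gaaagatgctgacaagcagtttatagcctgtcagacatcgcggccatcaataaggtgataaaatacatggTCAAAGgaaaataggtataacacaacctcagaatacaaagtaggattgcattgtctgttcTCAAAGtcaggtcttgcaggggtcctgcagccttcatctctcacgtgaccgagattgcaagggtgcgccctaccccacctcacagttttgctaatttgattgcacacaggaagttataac
Dapl1: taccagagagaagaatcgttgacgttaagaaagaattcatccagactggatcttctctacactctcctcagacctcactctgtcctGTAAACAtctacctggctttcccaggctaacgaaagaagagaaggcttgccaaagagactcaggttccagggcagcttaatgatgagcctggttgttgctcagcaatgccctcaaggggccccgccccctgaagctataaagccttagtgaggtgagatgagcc
Igfbp4: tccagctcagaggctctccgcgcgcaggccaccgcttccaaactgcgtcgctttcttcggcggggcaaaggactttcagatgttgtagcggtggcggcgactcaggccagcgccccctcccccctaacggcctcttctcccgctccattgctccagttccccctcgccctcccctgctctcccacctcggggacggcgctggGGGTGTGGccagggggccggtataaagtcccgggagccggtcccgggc
The internal *Lef1* start held 2 TCF/LEF matches, *Dapl1* held 1 FOXO match, and the 5′-most *Lef1* start and *Igfbp4* each held 1 KLF match. Over the 7 genes, a TCF/LEF match was found for 2 (*Lef1* and *Bach2*), FOXO for 1, RUNX for 0, ETS for 2 and KLF for 4. Counted over the 15 entries, of which a gene had up to 5, the matches were in 2, 1, 0, 2 and 7. The *Lef1* entries at chr3:131110047-131110296 and chr3:131110073-131110322 overlap and hold the same KLF match, which was counted in both. Among 32851 mouse promoter entries of the same length the shares were 13.8% for TCF/LEF, 3.17% for FOXO, 4.4% for RUNX, 6.91% for ETS and 14.9% for KLF. A match describes letters in a window and shows no binding. In the GENCODE annotation of the same build, *Lef1* spans chr3:131110471-131224356, *Tcf7* chr11:52252371-52283014, *Dapl1* chr2:59484653-59505020, *Igfbp4* chr11:99041244-99054392, *Ccr7* chr11:99144196-99155077, *Il7r* chr15:9505788-9530176, *S1pr1* chr3:115710433-115715072, *Satb1* chr17:51736187-51833290 and *Bach2* chr4:32238804-32586108, all of them protein coding.

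Cells were classed by a few genes that are not members. T cells had at least 2 UMIs of *Cd3d*, *Cd3e* and *Cd3g* and at most 2 of *Cd79a* and *Cd79b*, and were split by the sum of the cytotoxic genes *Klrd1*, *Nkg7*, *Gzma* and *Klrk1* into T low cells (a sum of at most 2, 462 cells) and T high cells (at least 3, 47 cells). B cells had at least 4 *Cd79a* and *Cd79b* UMIs and no *Cd3* UMI. B-2-like cells carried *Fcer2a* but no *Bhlhe41*, *Zbtb32* or *Cd5* (84 cells), and B-1-like cells carried any of the latter but no *Fcer2a* (1233 cells). Another 1447 B cells with neither kind of split marker and 60 with both were left out of the B cell classes. Macrophages had at least 2 UMIs of *Csf1r* and *Adgre1* (1959 cells). The library numbers held between 22 and 162 T low cells, but only between 1 and 14 T high and between 6 and 21 B-2-like cells. Kept UMIs ran from 4225280 to 10277486 per library number, and the median UMIs per cell were 2684 in T low, 2623 in T high, 2918.5 in B-2-like, 6741 in B-1-like and 5136 in macrophages.

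The classes were checked with marker lists. All 13 T cell markers were detected in at least 10% of T low and of T high cells, and all 8 B cell markers in both B classes. Summed macrophage markers stood at 463 CPM in T low cells (17.0 to 1019 by library number) against 22708 in macrophages, and *Lyz2* alone at 318 against 16305. Summed B cell markers stood at 96.9 CPM in T low cells against 2985 in B-1-like and 4046 in B-2-like cells, and the NK marker list, which shares genes with the gate, at 1426 CPM in T high against 128 in T low cells, with *Klrb1c*, an NK receptor outside the gate, at 37.4 CPM (6 UMIs) against 0.707 (1 UMI) and *Ncr1* at 0 UMIs in all 5 classes. *Ighd*, the IgD heavy chain of mature B cells, was at 446 CPM in B-2-like and 68.8 in B-1-like cells. The B-2 marker *Cxcr5* (77.2 against 85.4 CPM) and the B-1 marker *Ctla4* (48.6 against 37.9) went against their lists. The other B-1 and B-2 markers outside the gates leaned to their own class. Of the kept cells, 2304 (30.1%) passed no gate, among them 237 with both *Cd3* and at least 3 *Cd79* UMIs. The median of these 237 cells was 9333 UMIs, above that of every lymphocyte class, of which B-1-like cells had the highest at 6741.

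The members fell into 3 groups by where their counts lay. *Lef1*, *Tcf7*, *Dapl1* and *Igfbp4* were found mainly in T cells, and *Ccr7*, *Satb1* and *Bach2* were shared with B cells. *Il7r* and *S1pr1* were also present in macrophages, and *S1pr1* in B cells as well. T low and T high cells together held 59.3% of all *Lef1* UMIs, 59.2% of *Tcf7*, 77.1% of *Dapl1* and 65.5% of *Igfbp4*. They held only 13.3% of *Ccr7*, 15.5% of *Satb1* and 4.51% of *Bach2*, of which the B cell gate held 44.7%, 53.5% and 62.6%. For *Il7r* 26.4% lay in T cells, 5.17% in the B cell gate and 18.0% in macrophages, while 49.1% lay in cells that passed no gate. For *S1pr1* 14.3% lay in T cells, 42.6% in the B cell gate and 23.3% in macrophages. The cells with both *Cd3* and *Cd79* UMIs held another 22.8% of *Lef1* and 21.7% of *Tcf7* UMIs, and were left out of every class.

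**Figure D1:**
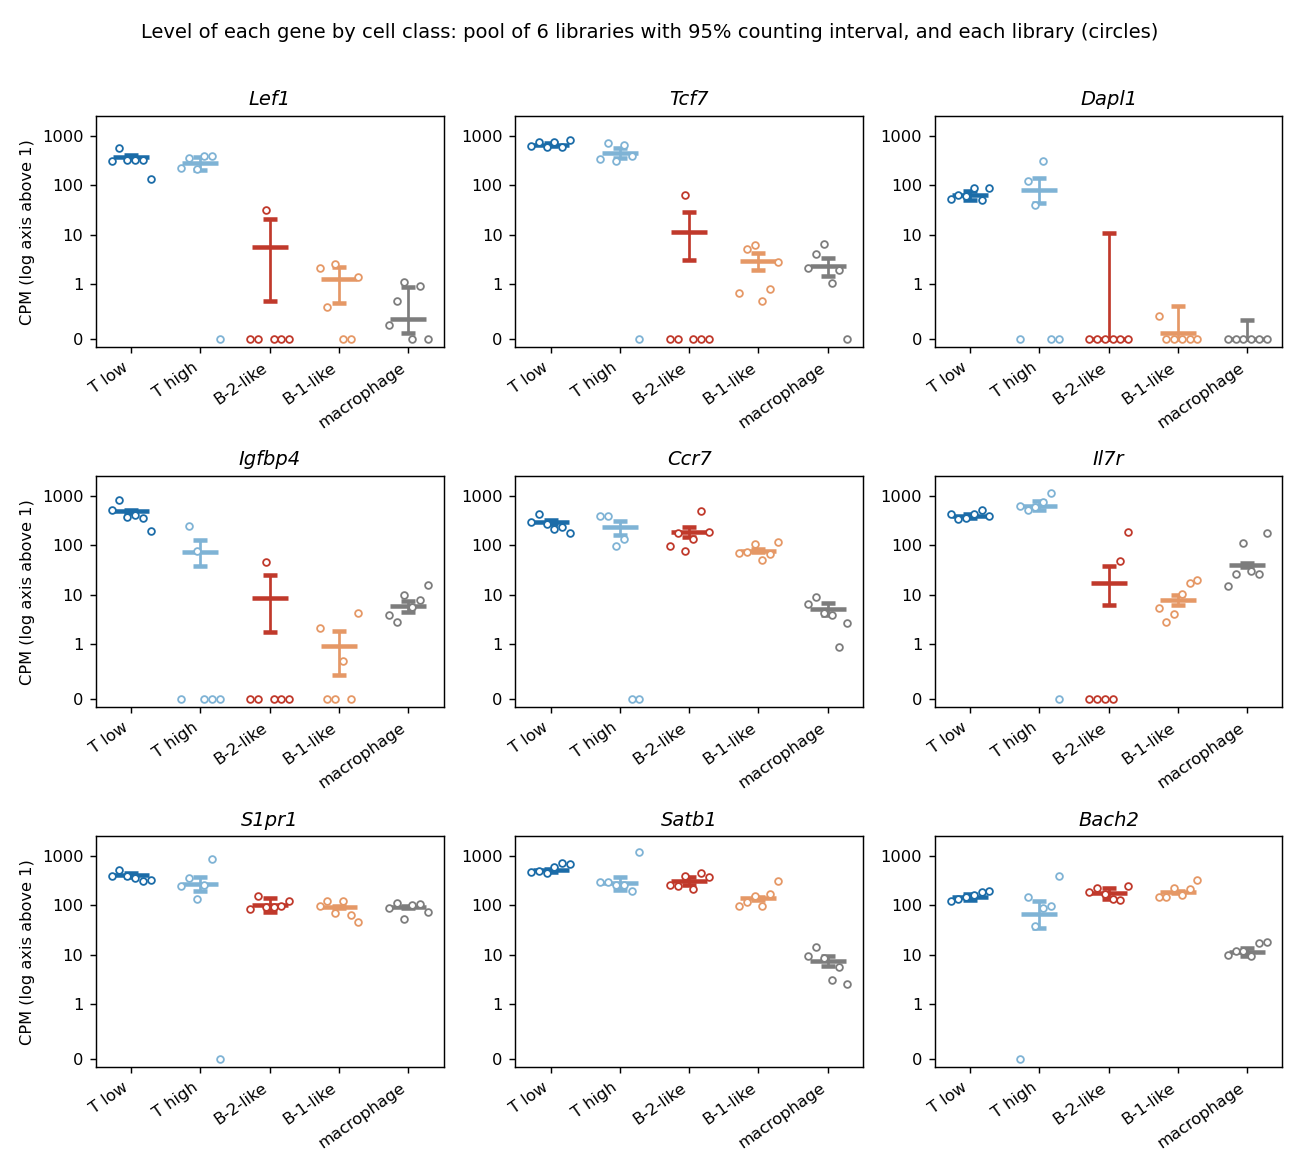
Level of each of the 9 genes in CPM (vertical axis, logarithmic above 1 CPM and linear below) in the 5 cell classes; the bar is the pool of 6 library numbers with its exact 95% counting interval and each circle is 1 library number. *Lef1*, *Tcf7*, *Dapl1* and *Igfbp4* drop from T cells to B cells and macrophages, *Satb1*, *Ccr7* and *Bach2* stay high in B cells, and *S1pr1* lies near 93 CPM in B-1-like cells and macrophages alike.

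*Lef1*, which encodes a partner of beta-catenin and the close relative of TCF-1, stood at 367 CPM (336 to 400.1) in T low cells, with 132, 325 and 566 CPM as the lowest, median and highest library number. It stood at 280.2 CPM (204 to 375) in T high cells, 5.72 in B-2-like cells (2 UMIs), 1.28 in B-1-like cells and 0.366 in macrophages (4 UMIs). Both T classes lay above all other classes, and their intervals overlapped. *Tcf7* had the same order, with 659 CPM (618 to 703) in T low, 455 (356 to 572) in T high, 11.4 in B-2-like, 2.88 in B-1-like cells and 2.29 in macrophages. In T low cells the library numbers held 594, 693 and 835 CPM of *Tcf7* (lowest, median, highest), so all 6 lay above every value of the B cell classes and macrophages. The 3 lowest classes could not be ranked for *Tcf7*, since the intervals of B-1-like cells (1.90 to 4.2) and macrophages (1.48 to 3.38) overlapped and the B-2-like value was 4 UMIs.

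*Dapl1* was the sparsest member, with 131 UMIs in all kept cells. It was at 62.3 CPM (49.9 to 76.7) in T low and 80.9 (43.1 to 138, 13 UMIs) in T high cells, which do not differ beyond their intervals. B-2-like cells and macrophages had 0 *Dapl1* UMIs, and B-1-like cells had 1. The T low level was 50.9 CPM in the lowest library number, 61.3 at the median and 88.5 in the highest, so every library number showed it.

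*Igfbp4* stood at 489.5 CPM (454 to 527) in T low cells and 74.7 (38.6 to 131) in T high cells. T low cells of the library numbers held 198, 397 and 811 CPM (lowest, median, highest), while in T high cells 4 of 6 library numbers were at 0 and the other two were at 78.3 and 242. The T high value rested on 12 UMIs in 10.6% of 47 cells. In the other classes *Igfbp4* was at 8.58 CPM in B-2-like cells (3 UMIs), 5.85 in macrophages (4.51 to 7.48) and 0.961 in B-1-like cells (0.44 to 1.82).
All 9 UMIs of *Lef1*, *Tcf7* and *Igfbp4* in B-2-like cells came from 1 cell of library number 3, which had 17200 UMIs and 2 UMIs of T cell receptor constant genes.

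*Ccr7* was present in all 4 lymphocyte classes. It stood at 299 CPM (271 to 328) in T low, 230.4 (162 to 318) in T high, 189 (146 to 240.1) in B-2-like and 77.9 (72.3 to 83.7) in B-1-like cells, and at 5.12 (3.87 to 6.65) in macrophages. Neighbouring intervals overlapped from T low to B-2-like cells, whereas B-1-like cells and macrophages each lay apart from the class above them. The B-2-like library numbers ran from 78.2 over a median of 155 to 499 CPM, and the highest was library number 5, where 26 of 31 *Ccr7* UMIs came from 1 cell. That cell also held 79 UMIs of *Ccl22*, a chemokine of activated dendritic cells, beside 10 of *Cd79a* and *Cd79b*.

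*Satb1*, a chromatin organizer of lymphocytes, stood at 509 CPM (473 to 548) in T low, 312 (256 to 376) in B-2-like, 286 (209.7 to 382) in T high and 139 (131 to 146) in B-1-like cells, with 7.50 (5.97 to 9.31) in macrophages. T high and B-2-like cells do not differ beyond their intervals, and all other neighbours in this order do. T low cells of the library numbers held 453, 553 and 713 CPM, and B-1-like cells 97.2, 137 and 305.

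*Bach2*, a repressor that restrains effector and plasma cell programs, was the only member with its highest levels in B cells. It stood at 187 CPM (179 to 196) in B-1-like, 174 (133 to 224) in B-2-like, 148 (128 to 169) in T low and 68.5 (34.2 to 123, 11 UMIs) in T high cells and 11.4 (9.52 to 13.6) in macrophages. The B-1-like and B-2-like values cannot be ranked, and the B-2-like interval also overlapped that of T low cells. By library number, *Bach2* ran from 145 over 187 to 328 CPM in B-1-like cells and from 123 over 156 to 198 in T low cells, so these ranges overlapped widely.

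*Il7r* had its highest level in T high cells, at 635 CPM (518 to 771), followed by T low cells at 389.8 (358 to 424). Macrophages came next at 40.8 (37.1 to 44.8), then B-2-like cells at 17.2 (6.30 to 37.3, 6 UMIs) and B-1-like cells at 7.90 (6.21 to 9.92), and neighbouring intervals overlapped from macrophages downwards. T low cells held 335, 412 and 526 CPM over the library numbers and T high cells 0, 613 and 1168, the 0 being library number 6 with its single T high cell. Macrophage values split by library number, with numbers 3 and 6 at 113 and 174 CPM and the other 4 between 14.7 and 29.9.

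*S1pr1* stood at 408 CPM (376 to 443) in T low and 274 (199 to 368) in T high cells. The remaining classes were almost level, at 103 (72.1 to 143) in B-2-like cells, 93.1 (87.1 to 99.5) in B-1-like cells and 92.5 (86.9 to 98.4) in macrophages. T low cells held 305, 376 and 511 CPM over the library numbers, above the highest value of macrophages (111) and of B-1-like cells (125).

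The share of cells in which a member was seen depends on depth, so every cell was thinned to 1500 UMIs, which left out 17 T low, 2 B-2-like, 2 B-1-like and 29 macrophage cells. Among 445 T low cells *Tcf7* was seen in 62.2% (57.6 to 66.8), *Satb1* in 50.6%, *S1pr1* in 48.1%, *Il7r* in 39.3%, *Lef1* in 37.8%, *Ccr7* in 34.2%, *Igfbp4* in 31.2%, *Bach2* in 18.2% and *Dapl1* in 8.76%. Among 47 T high cells *Il7r* was seen in 57.4% (42.2 to 71.7), *Tcf7* in 51.1% (36.1 to 65.9), *Lef1* in 36.2% and *Igfbp4* in 2.13% (0.0539 to 11.3). Without thinning the T low shares, in the order given, were 78.4%, 67.3%, 69.3%, 51.7%, 57.8%, 52.4%, 37.9%, 32.3% and 13.2%. Free RNA can give UMIs to cells that do not express a gene, and in 1930 macrophages the shares at 1500 UMIs were 0.0518% for *Lef1*, 0.155% for *Tcf7*, 0.363% for *Ccr7*, 0.829% for *Igfbp4*, 0.881% for *Satb1* and 1.24% for *Bach2*. *Dapl1* was seen in 0 of these macrophages, which, taking 3 cells as the limit that a count of 0 allows, leaves a share of up to 0.155% with a UMI at this depth.

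In the B cell classes the thinned shares split the members the same way as the levels did. *Lef1*, *Tcf7*, *Dapl1* and *Igfbp4* were seen in 0 of 82 B-2-like cells, which by the same rule allows up to 3.66%, and in at most 0.244% of 1231 B-1-like cells. *Satb1* was seen in 32.9% of B-2-like (22.9 to 44.2) and 14.8% of B-1-like cells (12.8 to 16.9), and *Ccr7* in 19.5% (11.6 to 29.7) and 8.20% (6.73 to 9.88). *Bach2* was seen in 19.5% and 22.2% and *S1pr1* in 17.1% and 15.4%, each pair within the intervals.

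*Il7r* and *S1pr1* stood above the other members in macrophages. The first was seen in 5.91% (4.90 to 7.05) and the second in 13.3% (11.8 to 14.9) of macrophages at 1500 UMIs. Per 100 UMIs of *Lef1* and *Tcf7* there were 38.0 *Il7r* and 39.8 *S1pr1* UMIs in T low cells, and 1538 and 3486 in macrophages, which held 29 *Lef1* and *Tcf7* UMIs in all. The other members were also higher by this measure in macrophages, *Bach2* at 431 against 14.4, *Satb1* at 283 against 49.6, *Igfbp4* at 221 against 47.7 and *Ccr7* at 193 against 29.1. The part of free RNA in these values was not tested.

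**Figure D2:**
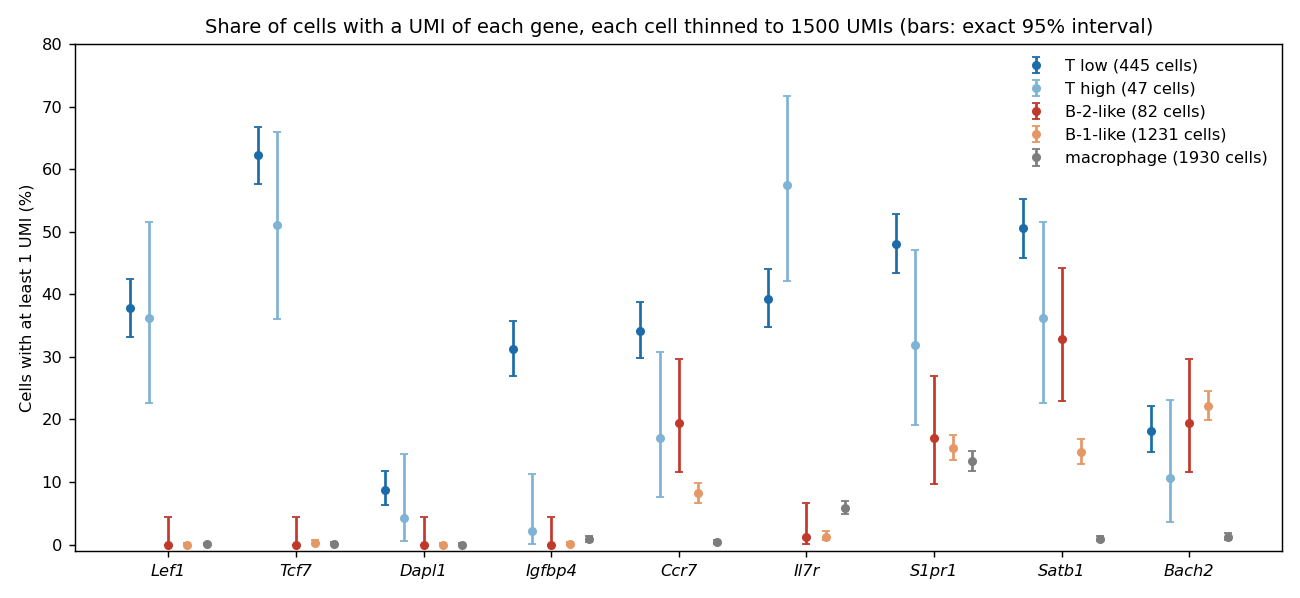
Share of cells with at least 1 UMI of each gene (vertical axis, percent) in the 5 classes after each cell was thinned to 1500 UMIs, with exact 95% binomial intervals. *Tcf7* reaches 62.2% of T low cells and 51.1% of T high cells, *Igfbp4* falls from 31.2% to 2.13% between them, and *Satb1* reaches 32.9% of B-2-like cells.

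The first comparison asked how the 9 genes differed between T cells with few and with many cytotoxic transcripts. A gene was called when the pooled level differed at least 2-fold (a log2 ratio of 1) and in the same direction in all 6 library numbers, among genes with at least 20 UMIs over both classes. By this rule 1 of 9 members, *Igfbp4*, was called higher in T low cells, where 1.68% of 6975 tested features were called higher. None was called lower, where 0.258% were. In T low cells *Igfbp4* was 6.55-fold higher (3.73 to 12.7), a log2 ratio of 2.71, in 6 of 6 library numbers. With 12 UMIs in T high cells, *Igfbp4* was tested only through T low cells, where it is high. This count of library numbers carries little weight. T high cells numbered only 3 and 1 in library numbers 5 and 6, and their median library number held 0 CPM of *Igfbp4*. Where T high cells show no UMI of a gene, any UMI in T low cells makes it higher there. A call of lower needs a UMI in the 1 T high cell of library number 6. Library number 2 held most *Igfbp4* UMIs of T high cells, and without that number the log2 ratio was 3.70.

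The other members had smaller ratios. *Tcf7* was 1.45-fold higher in T low cells (1.14 to 1.87), in 6 of 6 library numbers, *Satb1* 1.78-fold (1.32 to 2.45) in 5 of 6 and *S1pr1* 1.49-fold (1.10 to 2.07) in 5 of 6. *Bach2* was 2.16-fold higher (1.18 to 4.39) but in only 4 of 6 numbers, so it was not called. *Lef1* (0.39 on the log2 scale, -0.05 to 0.86), *Ccr7* (0.37, -0.11 to 0.90) and *Dapl1* (-0.38, -1.23 to 0.59) could not be told apart between the classes at this depth. For *Ccr7*, 9 of the 37 T high UMIs came from 1 cell, the log2 ratio was 1.01 when each cell had the same weight, and the thinned shares were 34.2% in T low (29.8 to 38.8) and 17.0% in T high cells (7.65 to 30.8). *Il7r* went the other way, 1.63-fold higher in T high cells, with a log2 ratio of -0.70 (-1.01 to -0.39) in T low over T high cells and in 5 of 6 library numbers. Library number 6, the exception, held 1 T high cell, and with numbers 5 and 6 left out *Il7r* was higher in T high cells in 4 of 4. When only cells without any cytotoxic UMI were set against cells with at least 5, the T high class had 15 cells and the *Il7r* log2 ratio was -0.20, while that of *Satb1* rose from 0.83 to 1.71 and *Satb1* was called as well. The median log2 ratio of the 9 members was 0.54, and that of all tested features -0.09. Macrophage markers were at 463 CPM in T low and 554 CPM in T high cells, and their part in these ratios was not tested.

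**Figure D3:**
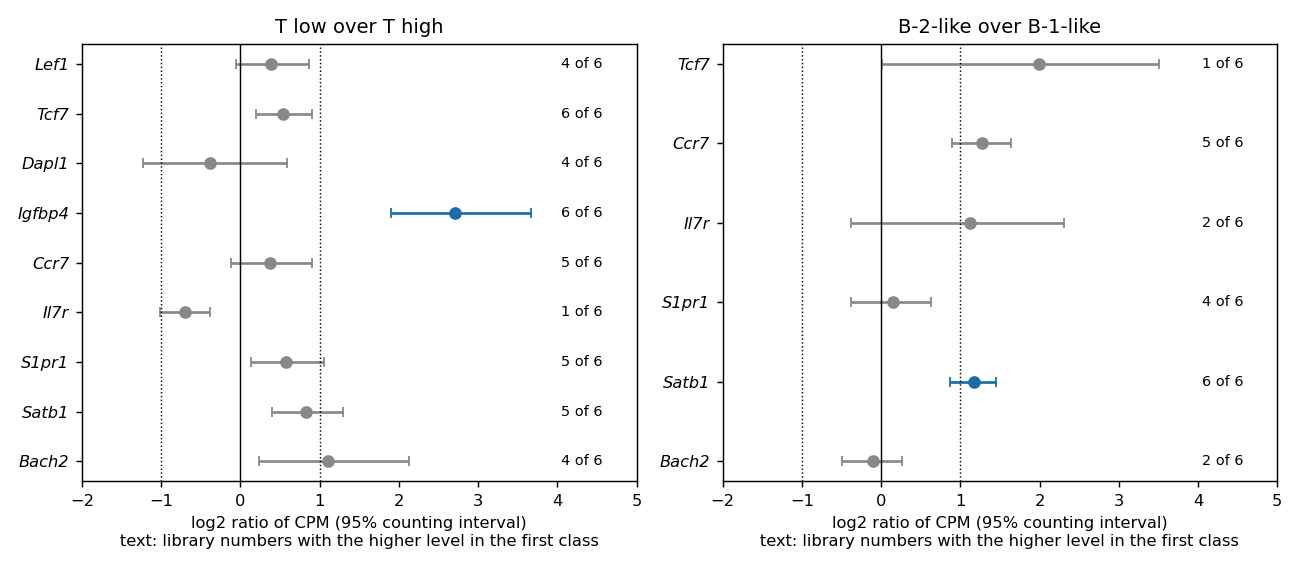
Log2 ratio of CPM with its exact 95% counting interval for the tested members, T low over T high cells on the left and B-2-like over B-1-like cells on the right; the text beside each bar gives the number of library numbers in which the first class was higher, dotted lines mark 2-fold and called members are blue. *Igfbp4* at 2.71 and *Satb1* at 1.17 are the called members, and *Il7r* lies at -0.70 between the T cell classes.

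Of 31 tested naive and quiescence partners listed beside the members, 2 were called higher in T low cells and 0 lower, against the 1.68% and 0.258% of all features. These were *Trib2* (log2 ratio 2.13), a pseudokinase, and *Tsc22d3* (1.60), the glucocorticoid-induced leucine zipper, while *Ly6c1* reached 2.44 but in 5 of 6 library numbers and *Actn1* 1.18 in 4 of 6. *Trib2* had 6 and *Tsc22d3* 10 UMIs in T high cells, and both were tested only through T low cells. Of 23 tested effector and memory genes, 0 were called higher and 3 lower in T low cells, the chemokine *Ccl5* at 722 against 6102 CPM (log2 ratio -3.08), *Ctla2a* (-1.40) and *S100a10* (-1.07). *Il18rap* (-3.01), *Anxa2* (-2.96) and *Ly6c2* (-2.84) were lower in 5 of 6. In the interleukin-7 receptor list 0 of 12 were called, with the signal transducer *Stat5b* at 0.92 and *Stat5a* at -1.92 in 4 of 6. No gene of the sphingosine 1-phosphate list (7 tested), the chemokine list (3), the TCF/LEF list (9), the BACH list (7) or the SATB list (8) was called in either direction, and in the insulin-like growth factor list (3 tested) *Igfbp4* itself was the called gene.

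Among T low cells, 116 carried *Cd4* and no *Cd8a* or *Cd8b1* UMI, 117 the reverse, and 229 neither. *Il7r* was 1.67-fold higher in the *Cd4* cells (1.28 to 2.2), at 407 against 243 CPM, in 5 of 6 library numbers. *Igfbp4* was 1.38-fold higher in the pool (1.10 to 1.74), at 492 against 356 CPM, but in only 3 of 6. *Satb1* was 1.28-fold (1.04 to 1.57) and *Dapl1* 1.78-fold (1.01 to 3.21) higher in the *Cd8* cells, each in 5 of 6. *Lef1*, *Ccr7*, *S1pr1* and *Bach2* had intervals that included 1, and *Tcf7* was 1.21-fold higher in the *Cd8* cells (1.01 to 1.45) in 4 of 6. So *Il7r* and *Dapl1* leaned to opposite sides.
Within *Cd8* cells alone, T low cells held 2.60-fold more *Igfbp4* (1.40 to 5.33) than the 24 T high cells, a smaller ratio than the 6.55-fold between the whole classes. The levels were 356 against 137 CPM, the latter from 11 UMIs, and T low cells were higher in each of the 4 library numbers that held such T high cells. In library numbers 1 and 4 these T high cells had 0 *Igfbp4* UMIs, so any T low UMI set the direction there. *Il7r* in the T low *Cd8* cells was 0.433 times that of the T high ones (0.299 to 0.635), at 243 against 561 CPM, lower in each of the 4 library numbers with such T high cells.

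A single T low cell showed 3.30 of the 9 members on average at 1500 UMIs, with 3.01 to 3.77 over the library numbers. T high cells showed 2.47 (2 to 2.73), B-2-like cells 0.902 (0.75 to 1), B-1-like cells 0.622 (0.527 to 0.907) and macrophages 0.227 (0.166 to 0.3). The library ranges of the classes did not overlap except between both B cell classes. At least 3 members were seen in 67.6% of T low, 44.7% of T high, 4.88% of B-2-like and 1.38% of B-1-like cells and in 0.155% of macrophages. At least 5 were seen in 22.7% of T low cells and in 3 of 47 T high cells, and in 0 cells of the other classes.

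**Figure D4:**
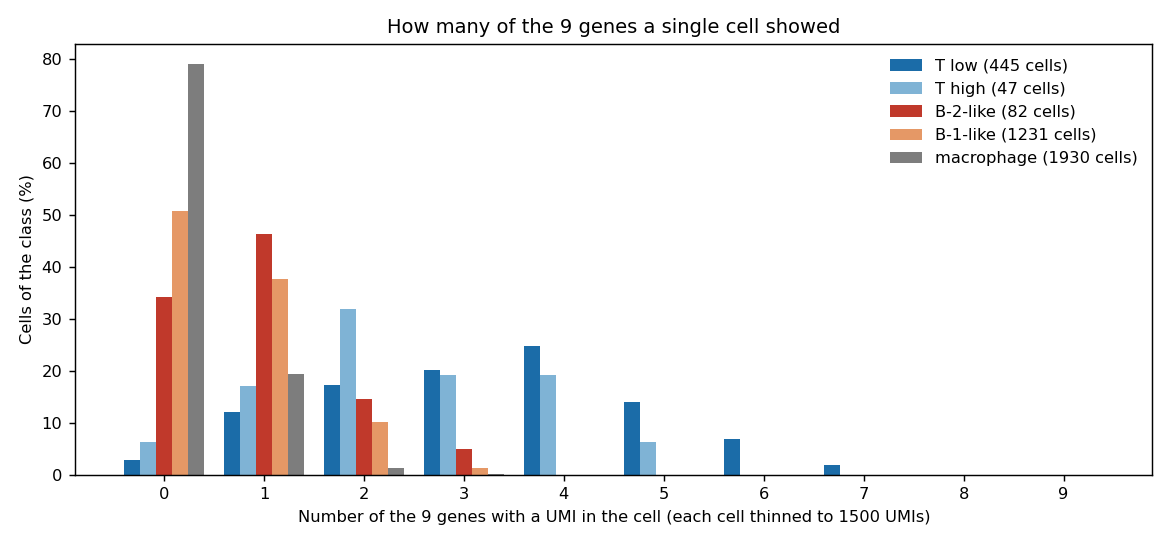
Number of the 9 genes with a UMI in a cell (horizontal axis) against the share of cells of the class (vertical axis, percent), each cell thinned to 1500 UMIs. T low cells peak at 4 genes and reach 7, B-2-like and B-1-like cells and macrophages reach 3, and 79.0% of macrophages showed none.

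Members did not simply come together in the same T low cells. Over 72 ordered pairs of members, the share of cells with the second gene was higher where the first was seen, with intervals that lay apart, in 15 and lower in 4. Counted once per pair of genes these were 8 higher and 2 lower of 36 pairs, and *Igfbp4* and *Ccr7* were each in 4 of the 8. Cells with *Igfbp4* showed *Ccr7* in 47.5% against 28.1% of the others, *Satb1* in 63.3% against 44.8% and *Tcf7* in 74.1% against 56.9%. *Ccr7* was seen in 43.5% of cells with *Lef1* against 28.5% without, and *S1pr1* in 58.6% of cells with *Ccr7* against 42.7%. Both lower pairs of genes held *Il7r*, which was seen in 28.8% of cells with *Igfbp4* against 44.1% without, and in 32.0% of cells with *Satb1* against 46.8%. These are cells of the same 6 libraries, pooled and thinned to equal depth, and the shares are a description. The shares also differed between library numbers, from 15.4% to 50.9% for *Lef1* and from 20% to 46.2% for *Igfbp4*. Pairs were not compared within library numbers, so the part of the library in these values was not tested.

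The second comparison asked whether the genes shared by T and B cells separated B-2-like from B-1-like cells. Of the 9 members 6 had at least 20 UMIs, and 1 of these, *Satb1*, was called higher in B-2-like cells, where 0.546% of 10993 tested features were called higher. None was called lower, where 1.97% were. *Satb1* was 2.25-fold higher (1.83 to 2.74), a log2 ratio of 1.17, in 6 of 6 library numbers. With a stricter split (at least 2 *Fcer2a* UMIs against at least 2 B-1 marker UMIs, which left 32 B-2-like cells) its log2 ratio was 0.58 and it was no longer called.
*Ccr7* was 2.42-fold higher in the pool of B-2-like cells (1.85 to 3.12), in 5 of 6 library numbers. It was not called, and it depended on few cells. Without library number 5, which holds the cell with 26 *Ccr7* UMIs, the log2 ratio fell from 1.28 to 0.62, under the stricter split it was -0.41, and without library number 3 *Ccr7* was called. *S1pr1* (log2 ratio 0.14, -0.38 to 0.63) and *Bach2* (-0.10, -0.50 to 0.27) were not distinguishable between both classes. *Il7r* (1.12, 6 UMIs in B-2-like cells) and *Tcf7* (1.99, 4 UMIs from 1 cell) were too sparse to be read.

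Beside 0.546% of all features called higher and 1.97% lower, 3 of 26 tested naive and quiescence partners were called higher in B-2-like cells and 0 lower. Among them were *Rasgrp2* (log2 ratio 1.67, 80.1 against 25.2 CPM), an activator of integrin signalling, and the transcription factor *Ets1* (1.18, 223 against 98.4 CPM). Of 17 effector and memory genes 0 were called higher and 5 lower, with *Anxa2* at -2.82 (2 B-2-like UMIs), *S100a6* at -1.63 and *S100a4* at -1.26. The plasma cell factor *Prdm1*, which is in both the effector and the BACH list, was called lower (-1.20) on 3 B-2-like UMIs with an interval that includes 0 (-3.49 to 0.37), and in the sphingosine 1-phosphate list the lyase *Sgpl1* (-1.02). Called lower too was 1 gene each in the interleukin-7 receptor list (*Cish*, -2.83, 1 UMI in B-2-like cells) and the insulin-like growth factor list (*Igf2r*, -1.70), while the chemokine and TCF/LEF lists had none in either direction.

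Against macrophages, 9 of 9 members were called higher in T low cells, where 13% of 11478 features were called higher and 17.7% lower. *Lef1* was 1003-fold higher (389.6 to 3697), *Tcf7* 288-fold (194 to 448) and *Igfbp4* 83.6-fold (64.7 to 109.8). *Dapl1*, with no macrophage UMI, was at least 227-fold higher, taking 3 counts over the macrophage class as the floor. *Lef1* had 4 macrophage UMIs, and *Lef1* and *Dapl1* were tested only because of their T low counts. *Satb1* was 67.9-fold, *Ccr7* 58.3-fold and *Bach2* 12.9-fold higher. With at least 1000 genes per cell, which left a library number with 5 T low cells, 6 of 9 were called beside 8.01% of features, without *Dapl1*, *Ccr7* and *S1pr1*. The receptors *Il7r* (9.55-fold, 8.42 to 10.8) and *S1pr1* (4.41-fold, 3.98 to 4.89) had the smallest ratios. In the lists, 21 of 31 naive and quiescence partners were called higher and 1 lower. In the SATB list 6 of 8 were higher, or 5 of 7 without the member *Satb1*, led by the T cell factors *Gata3* (8.65) and *Bcl11b* (7.79). In the BACH list 2 of 10 were higher in T low cells, or 1 of 9 without the member *Bach2*. Another 6 were lower, with *Hmox1*, a heme oxygenase and classical BACH target, at 65.8 against 2782 CPM. Of 22 effector and memory genes 7 were higher and 8 lower.

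T low cells were also set against B-2-like cells, where 6 of 9 members were called higher and 6.54% of 7381 features were, with 0 members lower beside 3.45% of features. The 6 were *Lef1* (64.2-fold, 17.7 to 532, 2 UMIs in B-2-like cells), *Tcf7* (57.6-fold, 22.4 to 212), *Igfbp4* (57.1-fold, 19.4 to 277, 3 UMIs), *Il7r* (22.7-fold, 10.4 to 62.2), *Dapl1* (at least 7.26-fold) and *S1pr1* (3.97-fold, 2.83 to 5.72). *Satb1* (1.63-fold, 1.33 to 2.02, in 6 of 6) and *Ccr7* (1.58-fold, 1.22 to 2.08, in 4 of 6) missed the 2-fold mark. Apart from *S1pr1*, the called members had at most 6 UMIs in B-2-like cells and were tested only through T low cells, where they are high. With the B-2-like cell that held the *Lef1*, *Tcf7* and *Igfbp4* UMIs left out, a choice made after seeing the data, these genes were at 0 there and T low cells were at least 40.7-fold, 73.1-fold and 54.3-fold higher. With at least 1000 genes per cell *Dapl1* and *S1pr1* were no longer called. *Bach2* was 0.848-fold (0.635 to 1.15), an interval that includes 1. Against macrophages, B-2-like cells had 3 of 7 tested members called higher, where 6.23% of 10941 features were, and 0 lower, where 12.4% were. The called members were *Satb1* (41.6-fold), *Ccr7* (36.8-fold) and *Bach2* (15.3-fold). The *Ccr7* log2 ratio was 5.20, and 4.45 without library number 5. With stricter gates for both classes it was 3.12, and *Ccr7* was no longer called. *S1pr1* did not differ beyond its interval there (1.11-fold, 0.775 to 1.55, and lower in B-2-like cells when the sums were scaled by TMM), and *Il7r* was 2.38-fold higher in macrophages in 4 of 6 library numbers. Of the naive and quiescence partners, 14 of 31 were called higher and 0 lower in T low than in B-2-like cells, and 11 of 26 higher and 1 lower in B-2-like cells than in macrophages.

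Class sums can also be scaled with the TMM factors of edgeR in place of total UMIs. This moved every log2 ratio of T low over T high cells by 0.30, of T low over macrophages by -0.45, of B-2-like over B-1-like cells by -0.12, of T low over B-2-like cells by -0.03 and of B-2-like cells over macrophages by -0.42, and left the number of members called in each comparison as it was.

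In macrophages the levels of *Il7r* and *S1pr1* differed in opposite directions between cells with different markers, and both transcripts were found in each group of cells. The split used here was chosen after the values were seen, with *Irf4* and *Fcrls*, which mark the smaller peritoneal macrophages, against *Gata6* and *Timd4*, which mark the large resident ones. *Il7r* was at 188 CPM (157 to 224) in the 117 cells with *Irf4* or *Fcrls* only and at 14.6 (11.3 to 18.6) in the 718 cells with *Gata6* or *Timd4* only, 12.9-fold apart in the pool (9.48 to 17.6) and higher in the first in 6 of 6 library numbers. Within library numbers that ratio ran from 1.81 in number 4 and 2.34 in number 6 to 93.2 in number 2, the last with 2 *Il7r* UMIs in the *Gata6* or *Timd4* cells, so the pooled interval does not cover the spread between libraries. *S1pr1* was at 45.2 CPM (30.7 to 64.2) in the first and 97.7 (88.7 to 107) in the second, 2.16-fold lower (1.5 to 3.22), again in 6 of 6, by 1.15-fold to 3.0-fold within library numbers. The 1099 cells with neither pair lay between them for *Il7r* (43.6 CPM) and with the large cells for *S1pr1* (93.9 CPM). The *Irf4* or *Fcrls* cells made up 16.9% and 17.0% of macrophages in library numbers 3 and 6, the numbers with the highest macrophage *Il7r*, and 2.31% to 4.98% in the other 4. In *Gata6* or *Timd4* cells *Il7r* was also highest in library number 6, at 116 CPM against at most 27.1 elsewhere. What the share of the marker-split cells and the library each contribute to the macrophage level was not tested.

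**Figure D5:**
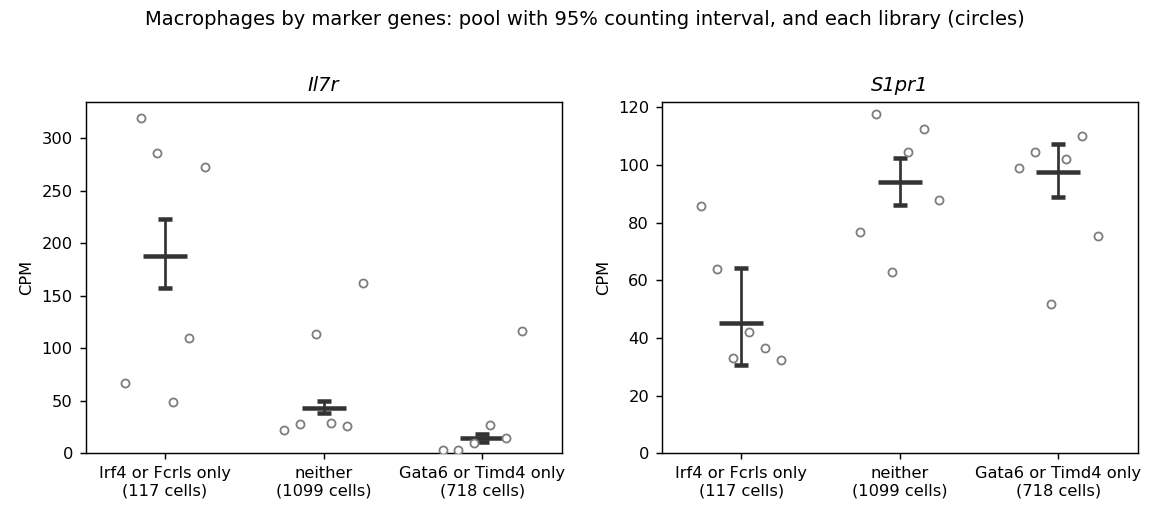
CPM of *Il7r* (left) and *S1pr1* (right) in macrophages split by marker genes, bars for the pool of 6 library numbers with exact 95% counting intervals and circles for each library number. *Il7r* falls from 188 to 14.6 CPM from left to right, and *S1pr1* rises from 45.2 to 97.7 CPM.

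For each member the features most like it were sought over 30 points, 5 classes in 6 library numbers, by Pearson's r of log2(CPM + 10) among 7944 features. The points share libraries and a common split between lymphocytes and macrophages, so r is high for many features and is given as a description. *Lef1* and *Tcf7* were each other's nearest match (r = 0.987), and the features close to them included *Thy1* (0.976), a T cell surface protein, for *Lef1* and *Txk* (0.975), a T cell kinase, for *Tcf7*. *Dapl1* was nearest to *Trbc1* (0.918), a T cell receptor constant gene, then *Il27ra* and *Abtb1*. *Igfbp4* had no match as close, with *Ndrg3* (0.881), *Rflnb* and *Atp2b4*. *Il7r* was nearest to *Frmd8* (0.898), *Thy1* and *Gpr132*, *S1pr1* to *Nsd3* (0.902), *Rabac1* and *Zc3hav1*, and *Ccr7* to *Slc50a1* (0.902), *C230085N15Rik* and *C2cd3*. *Satb1* was nearest to ribosomal protein genes, *Rpl9* (0.938), *Rps27* and *Rps10*. *Bach2* was nearest to the ribosomal pseudogenes *Rps27a-ps2* (0.888) and *Rps15a-ps5*, whose reads cannot be separated from those of their parent genes, and then to *Ppp1r16b*.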

How the data were processed

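Peritoneal cells were profiled with the 10x Genomics 5′ kit. The authors mapped the reads to human and mouse genomes and counted UMIs on mm10 (GRCm38), and the submitters' processing notes name Cell Ranger 2.2 and Seurat 3.0. The deposited table holds raw UMI counts for 55538 features in 7760 barcodes (40172124 UMIs), with 0 unused columns of other samples. With the study's cut-offs, cells with under 500 genes, a gene to UMI ratio under 0.8 (computed here as log genes over log UMIs) or over 10% mitochondrial UMIs were dropped, which left 7665. Scrublet (expected rate 0.01) marked 47 barcodes (0.606%), which were kept, and free RNA was not removed. The members, gates and lists were chosen with earlier results of these data known. Named were the 9 members, the gate genes, up to 4 genes per list with the largest absolute log2 ratio, and the 3 features most like each member, of which a few are not reported here. Cells are not replicates, so levels are pooled sums with Poisson, conditional or Clopper-Pearson intervals at 95%, shown with each library number. The call rule was run on simulated Poisson counts without spread between libraries, which cannot show how it fares with such spread. Alternatives changed cell filters, doublets, gates, fold, UMI minimum, weighting, TMM scaling, thinning and library numbers. Python 3.11.15, numpy 2.4.6, scipy 1.17.1, pandas 2.3.3, scanpy 1.11.5, R 4.3.3 and edgeR 4.0.16 were used.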

Additional observations from a re-analysis of the deposited data

Results flagged for a closer look

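Of the kept cells, 799 had no UMI of the *Cd3*, *Cd79* and macrophage gate genes and entered no comparison, 359 of them in library number 6. In them, 7 of the 9 members lay above the upper limit of the macrophage interval. The share of all features above that limit was not computed, so this count is not a result about the members. The levels were 22.5 CPM for *Lef1* (16.8 to 29.4), 39.4 for *Tcf7* (31.8 to 48.3), 18.7 for *Igfbp4* (13.6 to 25.0), 204 for *Ccr7* (186 to 223), 232 for *Il7r* (213 to 253), 114 for *Satb1* (101 to 129) and 65.3 for *Bach2* (55.4 to 76.5). The macrophage upper limits were 0.937 CPM for *Lef1*, 3.38 for *Tcf7*, 7.48 for *Igfbp4*, 6.65 for *Ccr7*, 44.8 for *Il7r*, 9.31 for *Satb1* and 13.6 for *Bach2*.

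A subset with at least 2 UMIs of dendritic cell markers (146 cells) was taken out after these values were seen. It held 720.1 CPM of *Ccr7* (649.8 to 796) in 47 cells and 466 CPM of *Il7r* (410.1 to 528) in 98 cells, and the library numbers ran from 138 to 1685 CPM for *Ccr7* and from 213 to 652 for *Il7r*. The marker counts were led by *Ccl22* (1476 CPM) and the integrin *Itgax* (506), with *Xcr1* at 0 and *Flt3* at 7 UMIs. *Lef1* (2 UMIs) and *Tcf7* (7 UMIs) were sparse in these cells.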

How the results depend on the processing

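No result reversed a called direction. The count of members called higher was 1 for T low over T high cells, and 2 with the stricter gates (15 T high cells, 1 library number with none, 2.89% of features called) or a log2 ratio of at least 0.5 (2.34%). For B-2-like over B-1-like cells it was 1, and 0 with the stricter gates (0.203%) or a log2 ratio of at least 2 (0.1%), with 1 to 2 when a library number was left out. For B-2-like cells over macrophages it was 3, and 2 with the stricter gates (3.98%). With at least 1000 genes per cell the count for T low cells was 6 against macrophages (8.01%) and 4 against B-2-like cells (3.98%), where a library number kept 5 T low cells. The mean number of members per T low cell was 3.09 with that filter. Thinning to 1000 UMIs gave means of 2.54 in T low, 1.85 in T high, 0.602 in B-2-like, 0.478 in B-1-like cells and 0.171 in macrophages, to 2000 UMIs 3.83, 2.98, 1.14, 0.794 and 0.281, and no thinning 4.6, 3.81, 1.70, 1.76 and 0.571. With each library number left out the macrophage mean ran from 0.220 to 0.253. Of 357 log2 ratios under other settings, 325 stayed within the interval of the reported value. Leaving out library numbers 5 and 6, chosen after seeing the data, gave 1 called member (*Igfbp4*) beside 3.1% of features. No paired analysis was possible because no label numbers replicates that the study's conditions share, while cell classes were compared within each library number by the call rule. Classes of 47 and 84 cells limit what the T high and B-2-like values can show.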
